A study of Mus musculus with 11 samples.

Results

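The genes described here are 40 genes of the unfolded protein response and of the set of genes that the transcription factor ATF4 acts on, named Atf4, Atf5, Atf6, Xbp1, Ern1, Eif2ak3, Eif2ak4, Ddit3, Ddit4, Trib3, Chac1, Sesn2, Cebpb, Ppp1r15a, Vegfa, Asns, Psat1, Phgdh, Psph, Shmt2, Mthfd2, Slc3a2, Slc7a5, Slc7a1, Hspa5, Hsp90b1, Calr, Canx, Pdia3, Pdia4, Pdia6, Dnajb9, Dnajc3, Sdf2l1, Creld2, Manf, Hyou1, Herpud1, Sel1l and Edem1. They were taken by gene symbol from tables of 31518 genes for mouse embryonic stem cells (mESCs) and 29450 genes for mouse embryonic fibroblasts (MEFs), and 40 of 40 were listed in both. Poly(A)+ RNA had been sequenced from 2 WT (Atxn7l3+/+) and 3 Atxn7l3-/- mESC libraries, and from 3 WT and 3 Atxn7l3-/- MEF libraries, of which the mESC lines were derived from individual blastocysts and the MEFs from E10.5 embryos without head and gut. All were of DBA/2 x C57BL/6 strain, none was treated further, the mESCs were taken off feeders and kept in serum with LIF, PD0325901 and CH99021, and the MEFs grew in serum. ATXN7L3 is an adaptor of the deubiquitylation module that removes ubiquitin from histone H2B, and the null allele was made by crossing mice with a KOMP targeting construct to a recombinase deleter strain. The study calls the mutant fibroblasts MEF-like and describes their shape as unusual.

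Cells answer misfolded protein in the endoplasmic reticulum (ER) through 3 membrane sensors. PERK (Eif2ak3) slows translation by phosphorylating eIF2, which lets the ATF4 mRNA be translated, IRE1 (Ern1) splices the Xbp1 mRNA, and ATF6 is cut from the membrane to become a transcription factor. GCN2 (Eif2ak4) reaches eIF2 and ATF4 from amino acid shortage instead. ATF4 activates amino acid synthesis, amino acid uptake and CHOP (Ddit3), while ATF6 and spliced XBP1 activate chaperones and the degradation machinery of the ER. Counts per gene do not show splicing of Xbp1, and steady-state mRNA levels do not show cleavage of ATF6 or translation of Atf4.

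Library totals ranged from 34515342 to 49602605 counts, 3 counts corresponded to 0.0605 to 0.0869 CPM (counts scaled to a common library size), and the lowest count of any of the 40 genes in any library was 23. CPM were normalized over the 11 libraries by TMM. Atxn7l3 itself was at 196 and 202 CPM in WT mESCs and at 0.831 to 3.33 CPM in Atxn7l3-/- mESCs, and at 86.4 to 117 CPM in WT MEFs against 55.4 to 73.3 CPM in Atxn7l3-/- MEFs. The groups did not overlap in either cell type, but the gene was still counted in the mutant MEFs. By the quasi-likelihood test of edgeR, its log2 fold change was -6.65 in mESCs (adjusted p = 0.0211). In MEFs it was -0.74 (adjusted p = 0.0715), which did not pass the threshold used for calls below. The counts are per gene, not per exon. Why more counts remained in mutant MEFs than in mutant mESCs was not tested. The paper reports that ATXN7L3 protein could not be detected in the mutant cells of either type. Pou5f1, which marks pluripotent cells, was at 803 CPM or more in mESCs and at 0 in MEFs. Vim, a fibroblast gene, was at 1342 CPM or more in MEFs. The summed level of 5 mesothelial marker genes was 17.6 to 43.1 CPM in WT MEFs and 4459 to 6604 CPM in Atxn7l3-/- MEFs, with Upk1b at 1863 CPM or more in the latter. Of these 5 genes, 4 had a positive and 1 a negative log2 fold change in the mutant MEFs. The latter was Krt19, at 4.27 to 18.1 CPM in WT MEFs and 4.50 to 14.1 CPM in Atxn7l3-/- MEFs. The summed level of 9 fibroblast marker genes was 10617 to 46041 CPM in WT MEFs and 18178 to 27203 CPM in Atxn7l3-/- MEFs, which overlapped. Of these 9 genes, 7 had a negative and 2 a positive log2 fold change in the mutant MEFs. Prrx1 was at 465 to 573 CPM in WT MEFs and at 6.16 to 341 CPM in Atxn7l3-/- MEFs, and Pdgfra at 7.89 to 99.1 CPM and 52.6 to 245 CPM. The summed level of 7 macrophage markers was 540.3 to 1114.5 CPM in WT MEFs and 852 to 6165 CPM in Atxn7l3-/- MEFs. Lyz2 alone was at 351 to 675 CPM in WT MEFs and 720 to 5371 CPM in Atxn7l3-/- MEFs. Adgre1, another of the 7, was at 36.0 to 82.6 CPM and 20.1 to 158 CPM, which overlapped. Of the 7 genes, 5 had a positive and 2 a negative log2 fold change in the mutant MEFs. The Y-linked gene Ddx3y was at 80.3 and 175 CPM in WT mESCs and at 192 CPM in Atxn7l3-/- mESC replicate 3, against 2.95 and 0.791 CPM in Atxn7l3-/- replicates 1 and 2, and it was at 0.244 CPM in WT MEF replicate 3 and at 66.3 CPM or more in the other MEFs. None of the 40 genes lies on X or Y.

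The promoters were read first, because the response is known for a few short DNA elements. RefSeq promoters, 250 bases before to 50 bases after the annotated start in GRCm38.p6, were matched to 36 of the 40 genes by symbol, and Atf6, Slc7a5, Hyou1 and Manf had no entry. The ER stress element, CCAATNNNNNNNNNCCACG, which is bound by NF-Y together with ATF6, was searched on both strands. It was found in 7 of the 36 genes (19.4%), against 37 of the 27025 genes with a promoter in the reference (0.137%). All 7 genes encode ER chaperones or folding factors, of which 11 had a promoter, and Hsp90b1 held it at 2 places. The matches are given 5′ to 3′ on the strand of the gene with 10 bases on each side, and capitals mark the fixed letters of the element, read as CCAAT and CCACG or, for a match on the other strand, as CGTGG and ATTGG.
Calr, chr8:84847065-84847103: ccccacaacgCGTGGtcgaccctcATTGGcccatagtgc
Canx, chr11:50325790-50325828: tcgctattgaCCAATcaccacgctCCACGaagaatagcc
Creld2, chr15:88819510-88819548: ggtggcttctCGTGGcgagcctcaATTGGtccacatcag
Dnajc3, chr14:118937817-118937855: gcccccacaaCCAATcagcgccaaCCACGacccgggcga
Hsp90b1, chr10:86705628-86705666: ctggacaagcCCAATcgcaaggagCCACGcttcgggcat
Hsp90b1, chr10:86705523-86705561: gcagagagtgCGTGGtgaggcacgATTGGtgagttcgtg
Hspa5, chr2:34772015-34772053: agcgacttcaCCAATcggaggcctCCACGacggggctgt
Pdia6, chr12:17266481-17266519: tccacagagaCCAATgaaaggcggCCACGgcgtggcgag

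Hspa5 encodes BiP, the main chaperone of the ER lumen, Hsp90b1 encodes GRP94, Calr and Canx are lectin chaperones, Pdia6 is a disulfide isomerase, Dnajc3 is a co-chaperone of BiP, and Creld2 is a secreted ER stress protein. Their elements began between 212 and 65 bases before the start, nearest in Hspa5. The shorter ER stress element II, ATTGG and CCACG with 1 base between them, shares the CCACG letters and was found in 1 of the 36 genes (2.78%) and in 0.0444% of all genes. It lay 52 bases before the start of Herpud1, which encodes an ER membrane protein of the degradation complex.
Herpud1, chr8:94386367-94386397: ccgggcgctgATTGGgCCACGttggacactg

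The C/EBP-ATF response element, TGATGNAAN, which ATF4 binds with a C/EBP partner, was found in 4 of the 36 genes (11.1%) and in 4.5% of all genes. These were Asns (asparagine synthetase), Chac1 (a glutathione-degrading enzyme), Trib3 (a pseudokinase that restrains ATF4) and Herpud1. Asns held it 23 bases before the start, and Trib3 held it 13 bases after the start. In the lines below the capitals mark TGATG and AA, or their complements where the match is on the other strand.
Asns, chr6:7693214-7693242: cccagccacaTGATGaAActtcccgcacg
Chac1, chr2:119351038-119351066: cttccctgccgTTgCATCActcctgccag
Herpud1, chr8:94386306-94386334: accacggcgggTTgCATCAgcccgcaccc
Trib3, chr2:152344029-152344057: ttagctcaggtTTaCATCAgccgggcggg

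The unfolded protein response element, TGACGTGG, was found in Vegfa alone (2.78%, against 0.714% of all genes), and the cAMP response element, TGACGTCA, in Ppp1r15a alone (2.78%, against 2.03%). The Vegfa match lay in the window chr17:46025114-46025413, at an annotated start inside the gene (46016993 to 46032369, minus strand). The window at the 5′ end of Vegfa, chr17:46032328-46032627, held no match. In all, 13 of the 36 genes held at least 1 of the 5 elements, and no matches overlapped in a promoter of these genes. A match is a run of letters and was not tested for binding. The 250 bases before the start are shown for Hspa5 and Hsp90b1, as chaperone genes with the ER stress element, and for Asns, as an amino acid gene with the C/EBP-ATF response element, with the matches again in capitals.
Hspa5, chr2:34771840-34772089: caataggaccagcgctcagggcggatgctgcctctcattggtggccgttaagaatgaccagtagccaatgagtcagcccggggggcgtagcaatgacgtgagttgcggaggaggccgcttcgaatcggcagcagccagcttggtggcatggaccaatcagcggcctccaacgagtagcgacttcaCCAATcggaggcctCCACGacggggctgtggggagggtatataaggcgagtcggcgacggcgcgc
Hsp90b1, chr10:86705445-86705694: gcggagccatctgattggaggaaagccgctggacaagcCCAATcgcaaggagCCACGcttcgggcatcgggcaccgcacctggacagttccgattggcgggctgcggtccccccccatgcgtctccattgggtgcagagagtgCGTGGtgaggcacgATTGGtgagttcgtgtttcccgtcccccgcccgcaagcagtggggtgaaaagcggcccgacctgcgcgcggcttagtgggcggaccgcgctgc
Asns, chr6:7693210-7693459: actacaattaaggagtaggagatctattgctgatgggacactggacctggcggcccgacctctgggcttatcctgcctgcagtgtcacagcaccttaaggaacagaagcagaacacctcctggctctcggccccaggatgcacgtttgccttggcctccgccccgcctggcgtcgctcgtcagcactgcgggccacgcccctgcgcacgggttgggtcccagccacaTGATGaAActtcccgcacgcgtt

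**Figure D1:**
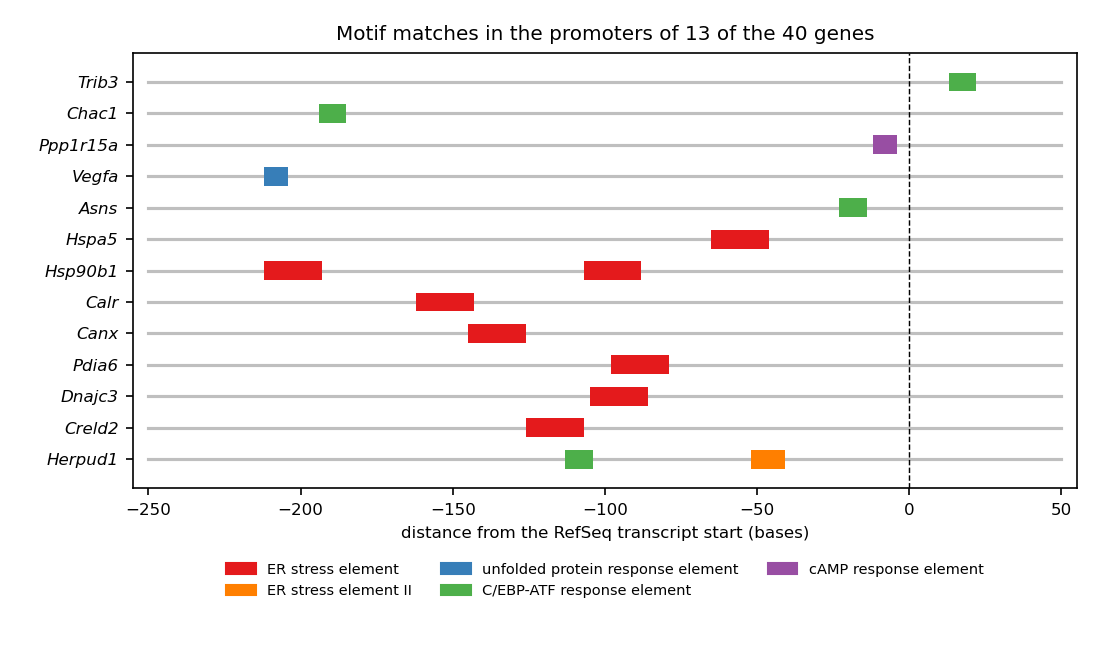
Positions of the 5 elements in the promoters of the 13 genes that held one, with the distance from the RefSeq transcript start in bases on the x axis and 1 line per gene. The ER stress element (red) lies in 7 chaperone and folding genes, and the C/EBP-ATF response element (green) in Asns, Chac1, Trib3 and Herpud1. The Vegfa match belongs to an annotated start inside the gene.

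The WT cells were compared first, to see how these genes are set in each cell type before Atxn7l3 is lost. WT MEFs carried more mRNA for the protein folding and degradation machinery of the ER, and WT mESCs more for amino acid and one-carbon synthesis and for amino acid uptake. The 13 chaperone and folding genes had a summed level of 5341 ± 622 CPM in the 2 WT mESC libraries and of 9559 ± 723 CPM (mean ± SD) in the 3 WT MEF libraries. The 6 synthesis genes summed to 2359 ± 187 CPM in WT mESCs and 619 ± 203 CPM in WT MEFs. In bulk RNA, a change in the number of cells of a type and a change in RNA per cell cannot be told apart, and cell type, medium and table cannot be told apart here either.

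Of the 40 genes, 14 were higher and 7 lower in WT MEFs at an adjusted p of 0.05 or less by the quasi-likelihood test of edgeR, adjusted after Benjamini and Hochberg over all 20063 genes tested and called the edgeR adjusted p from here on. Over all genes tested, 55.4% were called in either direction, 27% higher and 28.5% lower, so the total of 21 was near the background and the roles were split. The median log2 fold change was 0.30 over the 40 genes and -0.03 over all genes. The libraries of the groups did not overlap for 25 of the 40 genes, against 73.1% of all genes, with 16 higher and 9 lower in WT MEFs (40% and 22.5% of the genes, against 34.5% and 38.6% of all genes). At an unadjusted p of 0.05 or less 21 of the 40 were found (52.5%), against 60.9% of all genes.

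Among the chaperone and folding genes, 9 of 13 were higher in WT MEFs and 0 lower, with a median log2 fold change of 0.97. Hspa5 (ENSMUSG00000026864, chromosome 2, 34771970 to 34777547 of mm10, plus strand, 9 exons) was at 676 and 758 CPM in WT mESCs. It was at 1310.0, 1456 and 1462.5 CPM in WT MEFs. Every WT MEF library was therefore above both WT mESC libraries, and the log2 fold change was 0.97 (SE 0.27, edgeR adjusted p = 0.0103). Calr, Hsp90b1, Pdia3, Pdia4, Pdia6, Dnajb9, Dnajc3 and Manf were the other called chaperone and folding genes. The log2 fold changes ranged from 0.68 for Pdia4 to 1.68 for Manf, a secreted factor of the ER stress response. Canx, Hyou1, Creld2 and Sdf2l1 were not called, with log2 fold changes of -0.11, -0.02, 0.11 and 0.33. The genes of ER-associated degradation were called higher in 3 of 3 cases: Herpud1 by 1.93, Sel1l by 1.26 and Edem1 by 0.84 on the log2 scale. Sel1l is the scaffold of the HRD1 ubiquitin ligase, and Edem1 trims mannose from misfolded glycoproteins. Of the 7 genes with an ER stress element, 5 were called higher (median log2 fold change 0.97), and of the 29 genes whose promoters lacked it, 8 were called higher and 6 lower (median 0.27). The 7 are all chaperone or folding genes and the 29 hold every role, so element and role cannot be told apart here. Pdia3, Pdia4 and Dnajb9, folding genes whose promoters lacked the element, were also called higher, and Sdf2l1 was not. The called degradation genes lacked it too. Without WT mESC replicate 1 the called chaperone and folding genes numbered 5, with Hspa5, Hsp90b1, Pdia4 and Pdia6 lost, and Pdia4 and Pdia6 were also lost without WT MEF replicate 2. Without WT mESC replicate 2 the called degradation genes numbered 1, with Sel1l and Edem1 lost.

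The synthesis genes ran the other way, with 5 of 6 called lower in WT MEFs and 0 higher. Asns (ENSMUSG00000029752, chromosome 6, 7675169 to 7693254, minus strand, 12 exons), which makes asparagine, was at 1263 and 1275 CPM in WT mESCs. In WT MEFs it was at 100.1, 195 and 128.5 CPM. The ranges were far apart, with a log2 fold change of -3.17 (SE 0.31, edgeR adjusted p = 2.96e-05), which is 8.99-fold less in WT MEFs. Per kb of its longest transcript, Asns was the most abundant of the 40 genes in WT mESCs, at 629 CPM per kb, and at 70 CPM per kb in WT MEFs, where Calr led with 816 CPM per kb. Shmt2 and Mthfd2, the mitochondrial one-carbon enzymes, were lower by -1.74 and -0.94 on the log2 scale, and Psat1 and Psph of serine synthesis by -1.20 and -1.002. Phgdh, the first enzyme of serine synthesis, was not called (0.41, SE 0.37). Of the transporters, Slc7a1, which imports arginine and lysine, and Slc7a5, which imports leucine, were called lower (-1.71 and -1.39). Slc3a2, the heavy chain that carries Slc7a5 to the membrane, was not called (-0.46, edgeR adjusted p = 0.129). Without WT mESC replicate 2, the called synthesis genes numbered 2, with Psat1, Psph and Mthfd2 lost, and the genes of any role called lower numbered 4. Mthfd2 was also lost without WT mESC replicate 1, WT MEF replicate 1 or WT MEF replicate 3.

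Few of the genes above these targets were called. Of 7 sensors and transcription factors 1 was called, Atf5, a relative of Atf4 that is translated under the same control, at 21.3 and 34.4 CPM in WT mESCs and 82.3 to 274 CPM in WT MEFs (log2 fold change 2.62, SE 0.55, edgeR adjusted p = 0.00242). Atf4 (ENSMUSG00000042406, chromosome 15, 80255184 to 80257540, plus strand) was at 330.5 and 348 CPM in WT mESCs and at 233, 424 and 286.5 CPM in WT MEFs, and these ranges overlapped (-0.11, SE 0.26). Xbp1 (ENSMUSG00000020484, chromosome 11, 5520659 to 5525893, plus strand) was at 127 and 122 CPM in WT mESCs and at 118, 180.3 and 152 CPM in WT MEFs, which also overlapped (0.27, SE 0.28). Atf6, Ern1, Eif2ak3 and Eif2ak4 lay between -0.06 and 0.34 and were not called. Of the 8 genes of stress response and feedback, Cebpb was called, at 0.473 and 0.800 CPM in WT mESCs and 1.24 to 10.9 CPM in WT MEFs (log2 fold change 3.16, SE 0.85), and without WT mESC replicate 2 it lost the call. Ern1 and Eif2ak4 were among the 3 least abundant genes per kb in WT mESCs, together with Cebpb.

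**Figure D2:**
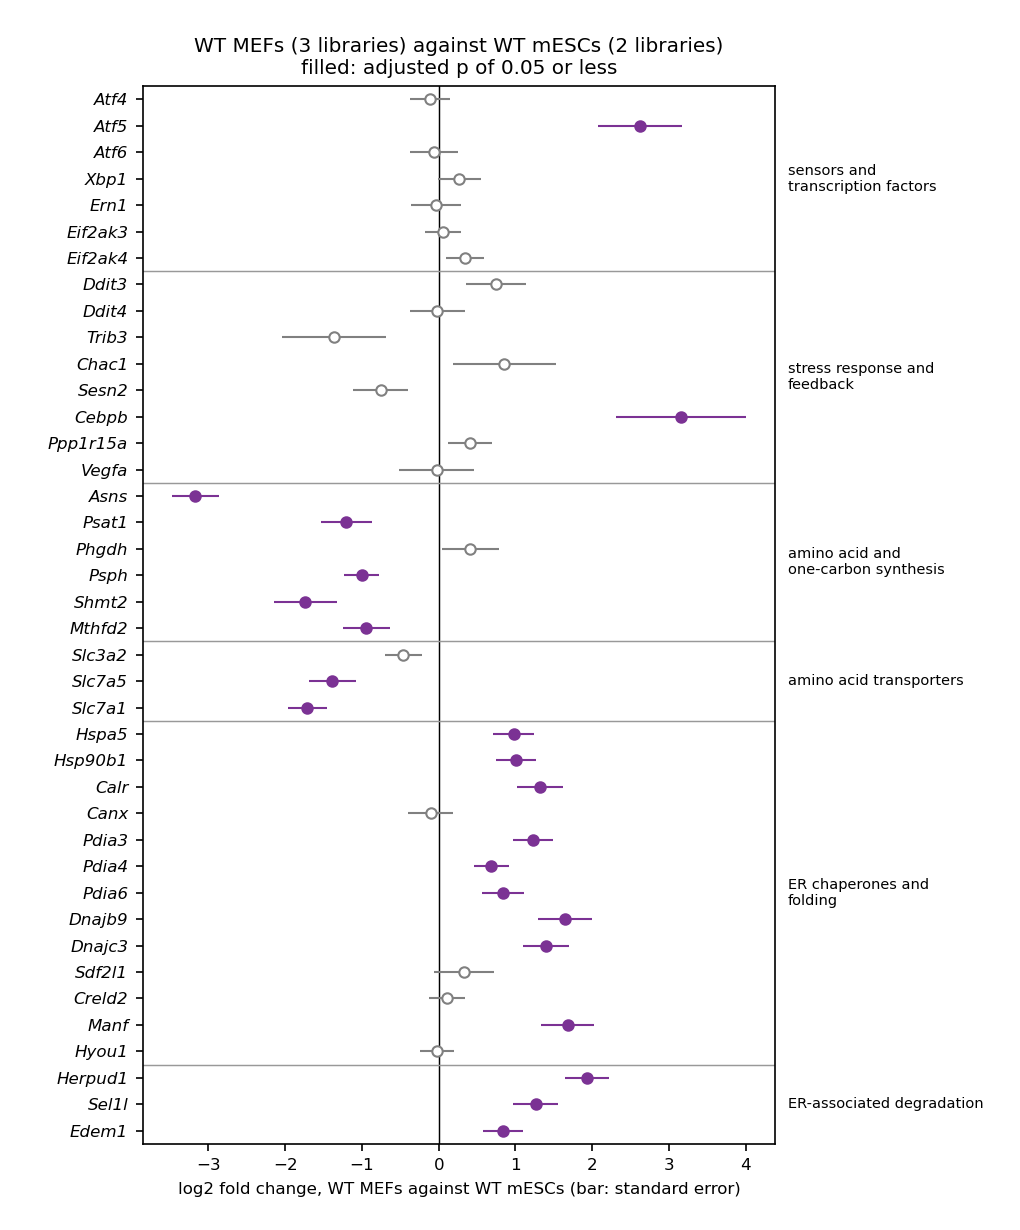
Log2 fold change of each of the 40 genes in WT MEFs against WT mESCs (x axis), by role, with bars for the standard error and filled points for an edgeR adjusted p of 0.05 or less. Of the chaperone and degradation genes, 12 of 16 are filled and to the right, with Canx and Hyou1 just left of 0, and 5 of 6 synthesis genes lie to the left with filled points.

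Wider lists of the same pathways were compared in the same fit, in which 27% of all genes were called higher and 28.5% lower in WT MEFs. The aminoacyl-tRNA synthetases, many of which ATF4 is known to induce, were lower in WT MEFs in 12 of 13 cases and higher in 0, with Cars at -1.46 and Lars at -1.36. Of 24 other ATF4-regulated genes, 4 were higher and 8 lower, and Got1, Cbs and Cth had the smallest p, at -2.90, -3.96 and -3.99. The translocon, signal peptidase and glycosylation genes were higher in 14 of 23 cases and lower in 0, other ER folding enzymes in 12 of 17 and 0, and other genes of ER-associated degradation in 13 of 21 and 0. Fkbp14 and Serpinh1, which fold collagen, were at log2 fold changes of 4.71 and 4.20. Of the 10 ER-anchored factors and proteases tested, 3 were higher and 0 lower, with a median log2 fold change of 0.41. Among them, Creb3l1 and Creb3l2 were at 4.57 and 2.97. Of the 13 genes for eIF2 kinases, eIF2 and eIF2B, 1 was higher and 8 were lower. Of the chaperones of other compartments, 4 of 12 cytosolic heat shock genes were higher and 5 lower in WT MEFs, and 0 of 8 mitochondrial chaperone and protease genes were higher and 4 lower.

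In Atxn7l3-/- mESCs, 1 of the 40 genes was lower than in WT mESCs and 0 were higher, against 3.88% and 3.08% of the 17800 genes tested (6.96% in either direction). The 40 genes had a median log2 fold change of 0.25, that of all genes was 0.04, and 29 of the 40 values were above 0. Groups did not overlap for 9 genes that were higher and 7 that were lower in Atxn7l3-/- mESCs (40% of the genes in all), against 23% and 26.7% of all genes (49.7% in all). At an unadjusted p of 0.05 or less 10 of the 40 genes were found (25%), against 29.8% of all genes. With the added demands of the study, at least 2-fold and a median above 10 reads per kb, 0 were higher and 0 lower, against 2.76% and 1.92% of all genes.

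The gene called was Slc7a1 (ENSMUSG00000041313, chromosome 5, 148327410 to 148399904, minus strand, 13 exons). Its level was 365 and 382 CPM in WT mESCs and 168, 224 and 219 CPM in Atxn7l3-/- mESCs. All mutant libraries were below both WT libraries, with a log2 fold change of -0.83 (SE 0.19, edgeR adjusted p = 0.0469). The call was lost when Atxn7l3-/- replicate 1 or 2 or either WT replicate was left out (edgeR adjusted p between 0.0510 and 0.250), and with the GC trend of each library removed (edgeR adjusted p = 0.0553). The partner transporter genes were not called, with Slc3a2 at 0.65 and Slc7a5 at 0.09.

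Ddit3 (ENSMUSG00000025408, chromosome 10, 127290774 to 127296288, plus strand, 4 exons) encodes CHOP, which promotes cell death when ER stress lasts. It was at 41.5 and 23.3 CPM in WT mESCs and at 69.2, 64.9 and 112 CPM in Atxn7l3-/- mESCs. The groups did not overlap, and the log2 fold change of 1.39 missed the threshold (SE 0.36, edgeR adjusted p = 0.0593), while DESeq2 gave an adjusted p of 0.00946. The share of all genes that DESeq2 called in mESCs is not given here. Chac1 and Sesn2, both induced by ATF4, had log2 fold changes of the opposite sign, -1.79 (SE 0.55, edgeR adjusted p = 0.0827, DESeq2 adjusted p = 0.0136) and -0.90 (SE 0.33, edgeR adjusted p = 0.124). Chac1 was at 16.6 and 22.8 CPM in WT mESCs and at 2.85 to 10.45 CPM in the mutants. Trib3, a further ATF4 target, was at -0.74 with overlapping groups. The response genes Ddit4, Cebpb, Ppp1r15a and Vegfa ranged from 0.04 to 0.43.

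Atf4 was at 229, 283 and 328 CPM in Atxn7l3-/- mESCs, below both WT values of 330.5 and 348 CPM, with a log2 fold change of -0.23 that was not called (SE 0.21, edgeR adjusted p = 0.495). Xbp1 was at 81.7, 112.5 and 61.6 CPM in Atxn7l3-/- mESCs, also below both WT values (-0.51, SE 0.25, edgeR adjusted p = 0.215). Ern1 was at 31.3 to 41.4 CPM in the mutants, above 30.0 and 23.0 CPM in WT mESCs (0.55, edgeR adjusted p = 0.170). Among the 13 chaperone and folding genes, 11 had a log2 fold change above 0 (median 0.35) and 0 were called, with the smallest edgeR adjusted p of 0.0967 for Hyou1, an ER chaperone of the HSP110 family, at 0.60. Hspa5 was at 533, 592 and 829 CPM in Atxn7l3-/- mESCs, values that enclosed both WT values (-0.09, SE 0.25). Asns was at 1407, 1371 and 889 CPM, around the WT values (-0.01, SE 0.25). Shmt2 was below WT in every mutant library, at 133 to 244 CPM against 307 and 405 CPM (-0.81, edgeR adjusted p = 0.0974).

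The libraries with and without Y-linked counts are split unevenly over the genotypes, so the comparison was repeated with the 3 libraries that have them, both WT libraries and Atxn7l3-/- replicate 3, a choice made after seeing the data. There, with 1 mutant library that was assumed to vary like the WT libraries, 3 of the 40 genes were called higher (Ddit3, Slc3a2 and Sdf2l1) and 4 lower (Xbp1, Chac1, Sesn2 and Shmt2), which is 17.5% of the genes against 20.8% of the 18739 genes tested in that fit. Slc7a1 was not called (-0.69, edgeR adjusted p = 0.0713). The part of sex in these values was not tested.

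In Atxn7l3-/- MEFs, 2 of the 40 genes were higher and 0 lower than in WT MEFs, against 5.01% and 4.39% of the 15958 genes tested (9.41% in either direction). The median log2 fold change of the 40 genes was 0.02 and that of all genes -0.06, with 20 values above 0 and 20 below. The groups did not overlap for 11 genes that were higher and 5 that were lower in the mutants (40% of the genes in all), against 20% and 19.7% of all genes (39.7% in all). At an unadjusted p of 0.05 or less, 10 of the 40 were found (25%), against 32.4% of all genes. At the 2-fold and 10 reads per kb of the study, 2 were higher and 0 lower, against 4.34% and 3.26% of all genes. The same-numbered MEF libraries deviated together, and in a fit blocked on that number 3 of the 40 genes were called, against 14% of all genes.

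Atf6 (ENSMUSG00000026663, chromosome 1, 170704674 to 170867771, minus strand, 16 exons), the membrane-bound factor that acts through the ER stress element, was at 147, 63.4 and 103 CPM in WT MEFs. It was at 314, 266 and 288 CPM in Atxn7l3-/- MEFs. The lowest mutant library was thus above the highest WT library, with a log2 fold change of 1.45 (SE 0.33, edgeR adjusted p = 0.0442), or 2.73-fold. The call was lost when WT replicate 3 or any of the Atxn7l3-/- replicates was left out (edgeR adjusted p between 0.0547 and 0.118), and with a filter of 10 counts in every library (edgeR adjusted p = 0.0545). Ern1, which encodes the sensor IRE1, was at 16.2 to 36.3 CPM in WT MEFs and 49.97 to 72.2 CPM in Atxn7l3-/- MEFs (1.25, SE 0.34, edgeR adjusted p = 0.0620), and it was called with the replicate block (1.32, edgeR adjusted p = 0.0479). The third sensor, Eif2ak3, was at 43.2 to 56.2 CPM in WT and 43.7 to 52.2 CPM in mutant MEFs (-0.03, SE 0.20).

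Psph (ENSMUSG00000029446, chromosome 5, 129765558 to 129787449, minus strand, 8 exons) encodes phosphoserine phosphatase, the last step of serine synthesis. It was at 24.1, 31.5 and 30.0 CPM in WT MEFs and at 49.4, 63.8 and 63.0 CPM in Atxn7l3-/- MEFs. Every mutant library was above every WT library, with a log2 fold change of 1.03 (SE 0.21, edgeR adjusted p = 0.0377), or 2.05-fold. The call was lost when any of the 6 MEF libraries was left out (edgeR adjusted p between 0.0529 and 0.116). The enzymes before it did not go with it: Phgdh was below WT in every mutant library (-0.83, edgeR adjusted p = 0.105) and Psat1 overlapped (0.12, SE 0.36). Asns was at 176, 216.5 and 206 CPM in Atxn7l3-/- MEFs, overlapping the WT MEF values (0.49, SE 0.28).

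None of the 16 chaperone, folding and degradation genes was called in Atxn7l3-/- MEFs, and their smallest edgeR adjusted p was 0.0693. Hspa5 was at 1853, 2211 and 1547 CPM in the mutants, each above the 3 WT MEF libraries (0.39, SE 0.26, edgeR adjusted p = 0.325). Hsp90b1, Dnajb9, Dnajc3, Sel1l and Edem1 were also above WT in every mutant library, as were 20% of all genes. Their log2 fold changes were 0.58, 0.95, 0.61, 0.25 and 0.72, with edgeR adjusted p between 0.0693 and 0.395. With the GC trend of each library removed, these 5 were at 0.29, 0.78, 0.36, 0.26 and 0.56. Hspa5 was then at 0.27, and the median of all genes was 0.12. The 7 genes with an ER stress element had a median log2 fold change of 0.17, and 0 of them were called. Xbp1 was at 219, 252.5 and 179 CPM in Atxn7l3-/- MEFs (0.52, SE 0.23, edgeR adjusted p = 0.168), with the lowest mutant library just under the highest WT library. Atf4 was at 270.5, 307 and 288 CPM, inside the range of the WT MEFs.

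The genes of the terminal and feedback arm lay below WT more often than above it, with 6 of the 8 log2 fold changes under 0 and a median of -0.61, and 0 were called. This order was not kept with the GC trend of each library removed, where 4 of the 8 were under 0, the median was 0.07, and Ddit3, Sesn2 and Ppp1r15a were at -0.53, -0.14 and -0.25. Ddit3 was at 47.9, 57.3 and 58.1 CPM in WT MEFs and at 26.5, 16.1 and 38.9 CPM in Atxn7l3-/- MEFs, without overlap (-1.01, SE 0.34, edgeR adjusted p = 0.0997). Sesn2, an inhibitor of mTORC1, was at 116 to 132 CPM in WT and 43.0 to 84.0 CPM in mutant MEFs (-0.96, edgeR adjusted p = 0.0706). Ppp1r15a, the phosphatase subunit that restores translation, was at 83.5 to 108 CPM in WT and 46.1 to 72.5 CPM in mutant MEFs (-0.78, edgeR adjusted p = 0.0934). Without Atxn7l3-/- MEF replicate 3, all of Ddit3, Sesn2 and Ppp1r15a were called lower. That replicate was the highest mutant library for each of them, so leaving it out lowers their mutant means. The share of all genes called in that fit is not given here. Vegfa was at 45.1, 36.5 and 142 CPM in the mutants, with replicate 3 above and the other two below the WT libraries.

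Beside these MEF values stand the mesothelial, fibroblast and macrophage marker levels given above, whose part in the results was not tested. Log2 fold changes in MEFs also followed the GC content of the transcripts across 15944 genes (Spearman's rho -0.394, a description over genes of the same libraries). Atf6 has 44.1% GC, Psph 54.3% and the median gene 50.4%. With this trend removed, 3 of the 40 genes were called, all higher, against 9.67% of all genes: Atf6 at 1.27 (edgeR adjusted p = 0.0355), Psph at 1.45 (edgeR adjusted p = 0.0180) and Ern1 at 1.52 (edgeR adjusted p = 0.0352). The median of all genes moved from -0.06 to 0.12 and that of the 40 genes from 0.02 to 0.29, with 29 values above 0 and 11 below. Atf4, Atf5, Eif2ak3, Ddit4, Vegfa and Shmt2 were among the uncalled genes that changed sign, Atf5 from -0.18 to 1.09 and Shmt2 from -0.41 to 0.41.

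**Figure D3:**
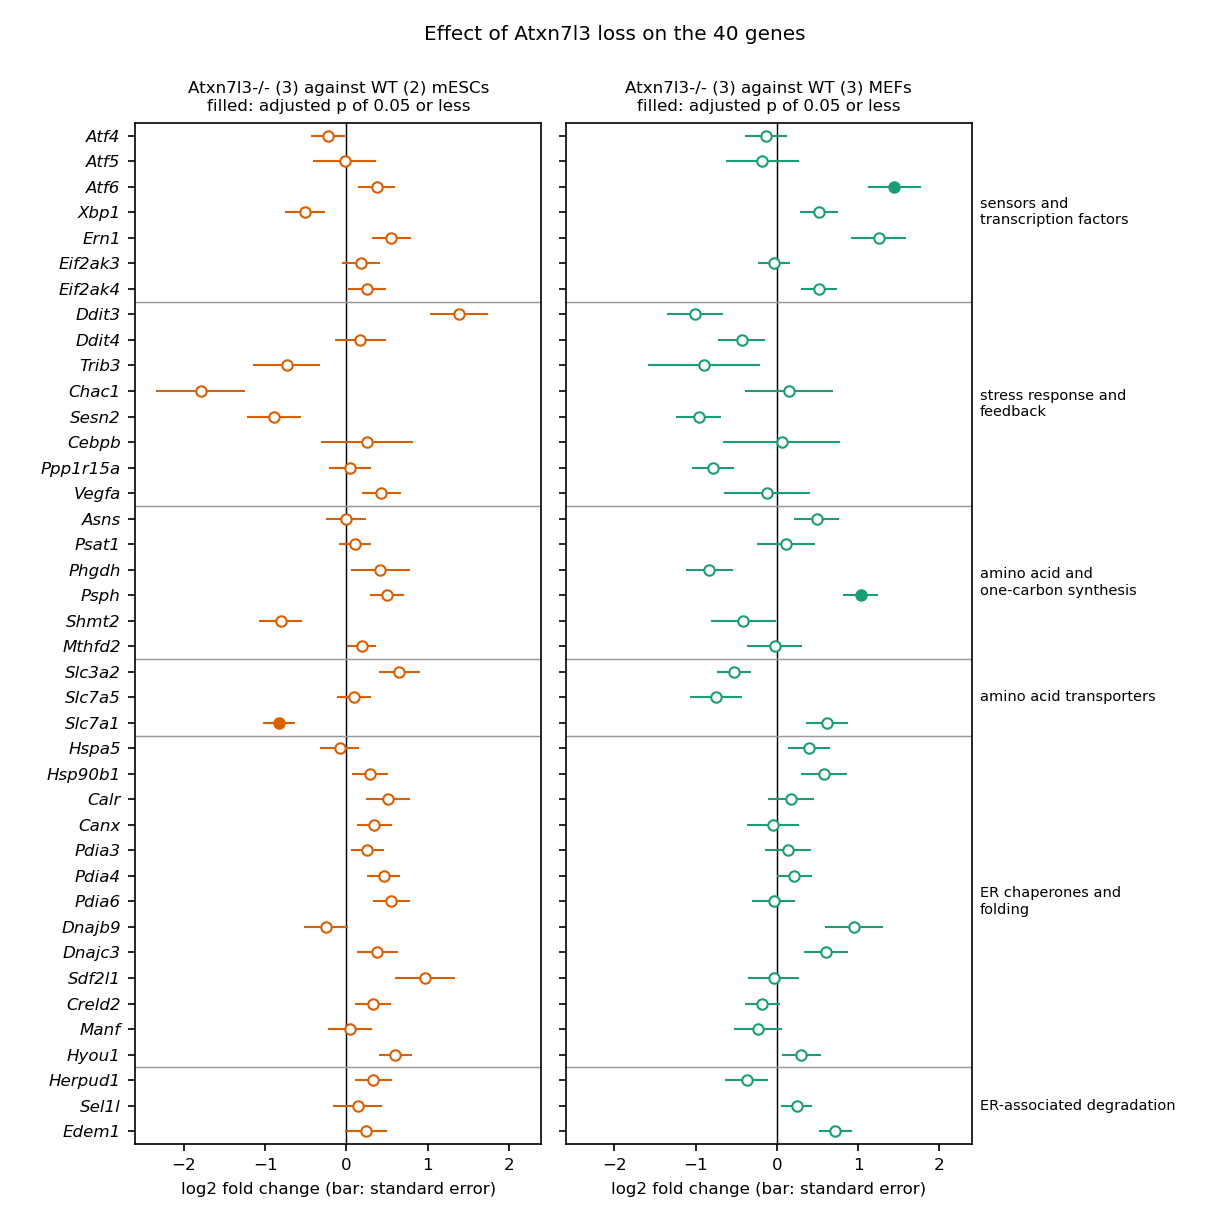
Log2 fold change of each of the 40 genes in Atxn7l3-/- against WT mESCs (left) and MEFs (right), by role, with bars for the standard error and filled points for an edgeR adjusted p of 0.05 or less. Slc7a1 is filled at -0.83 in mESCs, and Atf6 and Psph are filled at 1.45 and 1.03 in MEFs.

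Whether the effect of Atxn7l3 loss differed between the cell types was tested as a difference of log2 fold changes, with the 11 libraries fitted together. Of the 40 genes, 1 had a higher effect in MEFs and 1 a lower one, against 5.68% and 4.83% of the 20063 genes tested. At an unadjusted p of 0.05 or less 8 of the 40 were found (20%), against 29.7% of all genes. Ddit3 had the larger difference, -2.34 on the log2 scale (SE 0.53, edgeR adjusted p = 0.0247), with every mutant library above WT in mESCs and below WT in MEFs, as the values per library above show. Slc7a1 had the reverse pattern, a difference of 1.51 (SE 0.34, edgeR adjusted p = 0.0247), since in MEFs it was at 130.3, 76.0 and 136 CPM in WT and at 168, 185 and 176 CPM in Atxn7l3-/- libraries. No mutant MEF library overlapped the WT range, although the MEF comparison alone was not called (0.62, SE 0.26, edgeR adjusted p = 0.158). With the GC trend removed, a fit added after seeing the data, Ddit3 was at -1.80 (edgeR adjusted p = 0.0395), Slc7a1 at 1.82 (edgeR adjusted p = 0.0170), and Xbp1 was called as well (1.37, edgeR adjusted p = 0.0485). In the fit with the replicate block the Slc7a1 difference was not called (edgeR adjusted p = 0.0552).

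Both calls of the difference were lost when single libraries were left out. That of Ddit3 was lost without either WT mESC replicate, Atxn7l3-/- mESC replicate 3 or Atxn7l3-/- MEF replicate 1 (edgeR adjusted p between 0.0510 and 0.130). That of Slc7a1 was lost without either WT mESC replicate, Atxn7l3-/- mESC replicate 1 or Atxn7l3-/- MEF replicate 2 (edgeR adjusted p between 0.0519 and 0.104). Slc3a2 and Dnajb9 also had log2 fold changes of opposite sign without overlap in either cell type, and neither difference was called. The share of all genes with that pattern was not counted. Slc3a2 lay above WT in Atxn7l3-/- mESCs (425 to 670.0 CPM against 331 and 375 CPM) and below WT in Atxn7l3-/- MEFs (174 to 183 CPM against 214 to 317 CPM), with a difference of -1.11 (edgeR adjusted p = 0.0572). Dnajb9, a BiP co-chaperone, was at 14.69 and 18.6 CPM in WT and 12.96 to 14.67 CPM in mutant mESCs. Those groups were barely apart, and the log2 fold change was not called (-0.25, SE 0.27, edgeR adjusted p = 0.558). In MEFs Dnajb9 was at 30.0 to 70.0 CPM in WT and 74.7 to 121 CPM in mutant libraries. Its difference between effects was 1.27 (edgeR adjusted p = 0.0906).

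**Figure D4:**
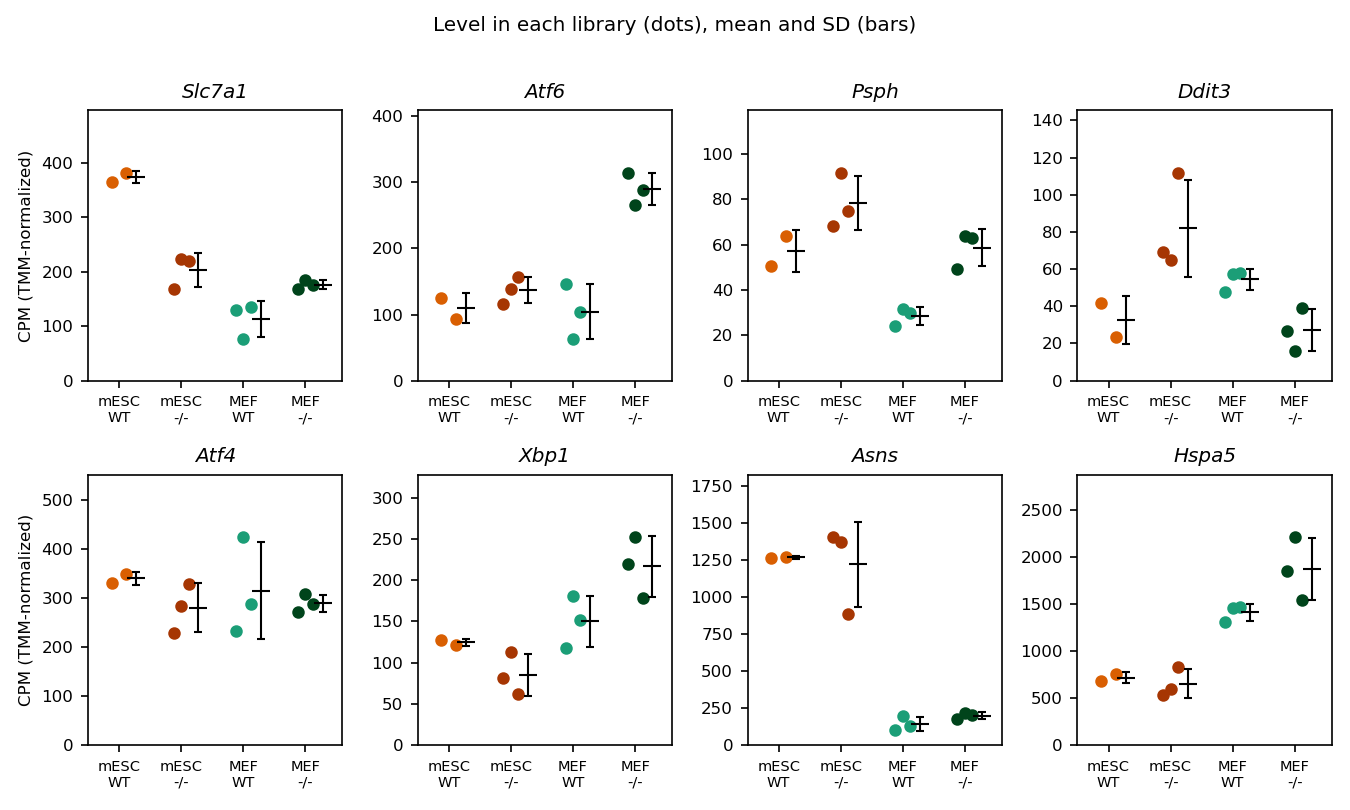
Level of 8 genes in each of the 11 libraries (dots, CPM on a linear axis from 0), with the mean and SD of each group beside them. Ddit3 lies higher in Atxn7l3-/- mESCs and lower in Atxn7l3-/- MEFs than in the matching WT libraries, Slc7a1 the reverse, and Asns is near 1270 CPM in WT mESCs and at or under 195 CPM in WT MEFs.

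The wider lists held a few genes that passed the threshold on Atxn7l3 loss. Over all genes tested, 3.08% were called higher and 3.88% lower in Atxn7l3-/- mESCs, and 5.01% and 4.39% in Atxn7l3-/- MEFs. Of the 24 other ATF4-regulated genes, 2 were higher and 1 lower in Atxn7l3-/- mESCs, and 1 higher and 2 lower in Atxn7l3-/- MEFs. Gdf15, a secreted stress cytokine, was at 7.54 and 6.21 CPM in WT mESCs and 21.7 to 34.9 CPM in Atxn7l3-/- mESCs (log2 fold change 2.20, edgeR adjusted p = 0.0228). In MEFs it was at 3.16 to 10.0 CPM in WT and 0.0511 to 0.396 CPM in Atxn7l3-/- libraries, of which replicate 2 was under the floor of 3 counts (-4.38, edgeR adjusted p = 0.0362), so it had the same order of groups as Ddit3. Slc38a2, a neutral amino acid transporter, was lower in Atxn7l3-/- mESCs (-1.09, edgeR adjusted p = 0.0401), as Slc7a1 was. Of 17 other ER folding enzymes, 4 were higher in Atxn7l3-/- mESCs and 2 in Atxn7l3-/- MEFs. Sil1, the nucleotide exchange factor of BiP, was at 14.4 and 17.7 CPM in WT and 42.1 to 60.0 CPM in Atxn7l3-/- mESCs (1.78, edgeR adjusted p = 0.0224). Ero1l, the oxidase that drives disulfide formation, was higher in Atxn7l3-/- MEFs (1.56, edgeR adjusted p = 0.0333). Atf6b, a relative of Atf6, was lower in Atxn7l3-/- MEFs (-1.18, edgeR adjusted p = 0.0491), opposite to Atf6. Of the 13 aminoacyl-tRNA synthetases and the 21 other degradation genes, 0 were called in either cell type.

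The libraries of a group did not all behave alike for these genes. WT MEF replicate 2 was the highest WT MEF library for 19 of the 40 genes (47.5%), against 36.2% of all genes, among them Atf4, Atf5, Trib3, Chac1 and 5 of the 6 synthesis genes, all but Phgdh. It was the lowest for Atf6, Ern1 and Dnajb9. The same library had the highest Col1a1 (14223 CPM against 2982 and 6888 CPM) and was at 323 CPM for Alb, a gene at 0.285 and 0.171 CPM in the other WT MEFs. Atxn7l3-/- MEF replicate 2 was the highest mutant MEF library for 12 of the 13 chaperone and folding genes and the lowest for 7 of the 8 response genes. In WT mESCs, replicate 2 was above replicate 1 for 6 of 6 synthesis genes, 3 of 3 transporters and 11 of 13 chaperone and folding genes, and below it for 7 of 8 response genes and 3 of 3 degradation genes. The part of these libraries in the results was not tested beyond the values without each of them.

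**Figure D5:**
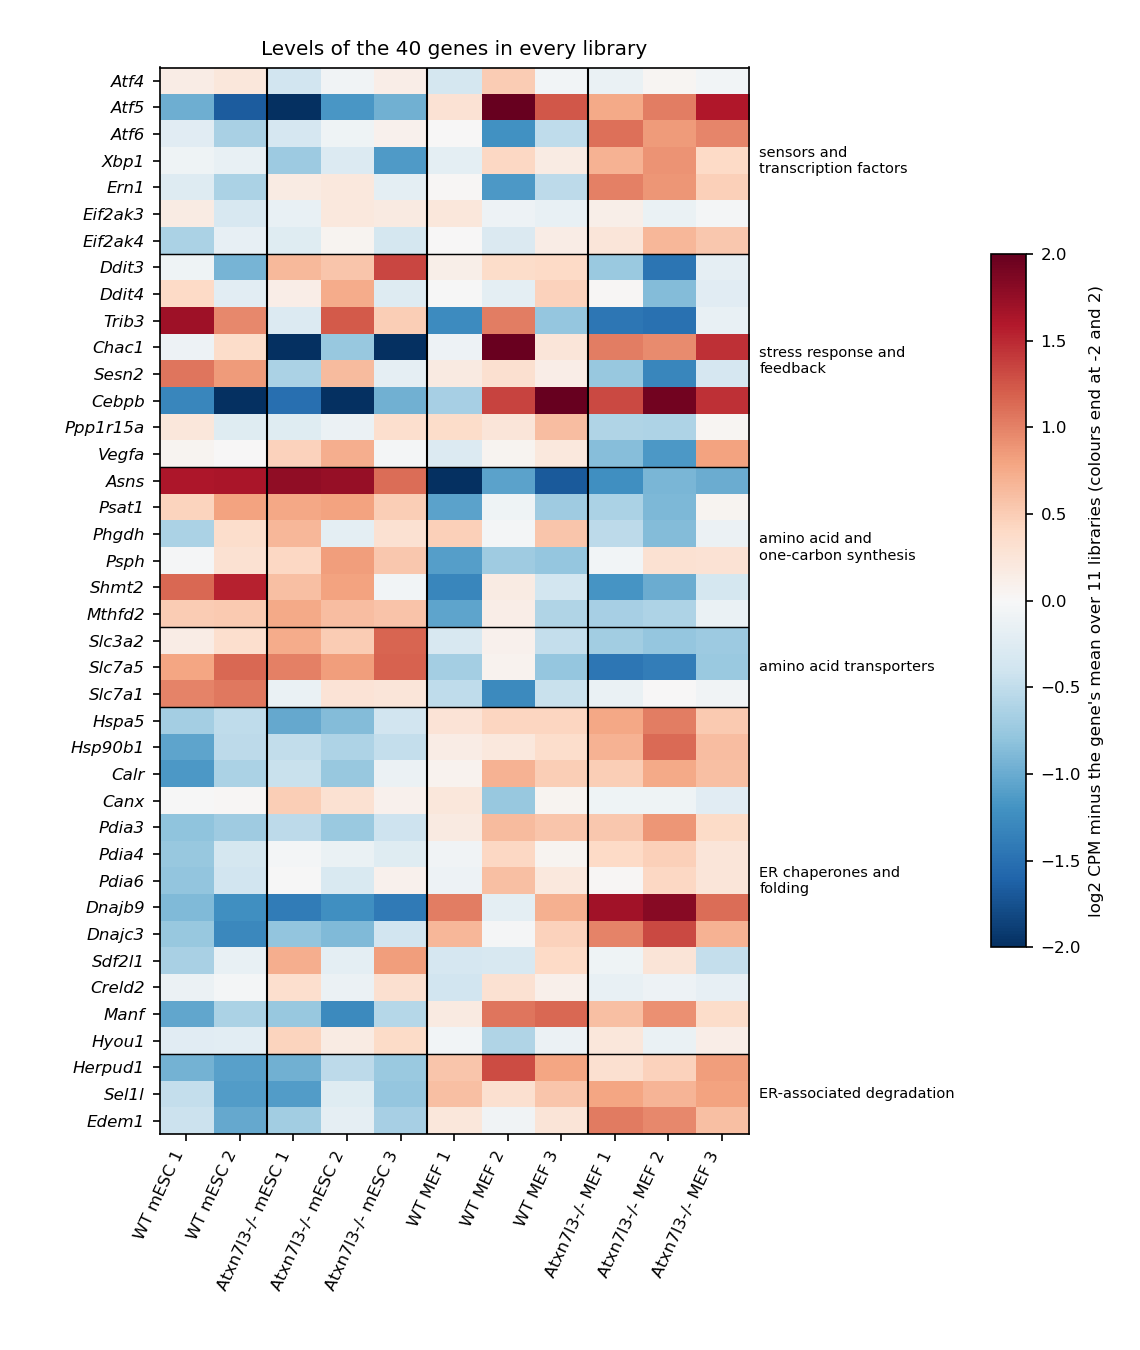
Log2 CPM of the 40 genes (rows, by role) in the 11 libraries (columns), centred on each gene's mean, with colours that end at -2 and 2. Asns and the transporters are red in WT mESCs, the degradation genes are red in nearly all MEF libraries, and WT MEF replicate 2 has the darkest red for Atf5 and Chac1.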

How the data were processed

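RNA was sequenced from 11 cultures with stranded mRNA libraries. The authors deposited 1 table of counts per gene for each cell type, made per the submitters' processing notes with bcl2fastq 2.17.1.14, cutadapt 1.10, STAR 2.5.3a and HTSeq 0.6.1p1 on mm10, and how strand was used in counting is not given in the sources used here. The tables also hold the authors' normalized counts divided by gene length, a deposited signal per kb that was used only for the study's own thresholds. Their log2 fold change and p-value columns, from DESeq2 1.16.1, and an unnamed column of medians were not used. A further WT mESC dataset is not analysed here. The paper states that it was excluded after a principal component analysis, in which it lay apart from the other replicates. The WT mESC libraries used here are those that were kept, so their spread may be smaller than that of WT lines, which was not tested.

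Counts were tested with edgeR 4.0.16 in R 4.3.3 (quasi-likelihood test, TMM, default low-count filter, Benjamini-Hochberg adjustment over all genes tested), within each cell type for genotype and over all 11 libraries for cell type and for the difference between effects, where table and cell type cannot be told apart. Genes were called at an adjusted p of 0.05 or less. CPM in the text use TMM over 11 libraries. Promoters were from RefSeq, GRCm38.p6, and coordinates of genes are those of the files. The fit was tested on simulated data with 200 changed genes, in equal numbers at 4-fold and at 16-fold. It recovered 50 at 4-fold and 92 at 16-fold in the mESC design (14 false calls among 17800 genes), and 37 and 76 in the MEF design (9 among 15958). For the difference between effects it recovered 8 and 48 (3 among 20063), and between the WT cells 32 and 58 (4 among 20063). Alternatives were DESeq2 1.42.0, its size factors in edgeR, other filters, no filter, 1 fit of all groups, a correction for GC content, the study's thresholds, a replicate block, leaving out each library and, added after seeing the data, only mESC libraries with Y-linked counts and the GC correction for the difference between effects. MEF libraries share replicate numbers in their titles, and same-numbered deviations from group means correlated (Pearson's r 0.473, 0.161 and 0.240), so the blocked values stand beside MEF results where they change a call.

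The members and lists were chosen with earlier results of these data known. Genes named in full were those called in a genotype comparison or interaction, plus Ddit3, Atf4, Xbp1, Asns and Hspa5 by name, and of each wider list the 3 genes with the smallest p could be named. P-values measure the spread between these cultures. Depth was 34515342 to 49602605 counts per library.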

Additional observations from a re-analysis of the deposited data

Results flagged for a closer look

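The genes Ddit3 and Slc7a1 had an effect of Atxn7l3 loss that differed between the cell types by the test of the difference itself. The effect on Ddit3 was lower in MEFs than in mESCs by a log2 difference of -2.34, with 3 of 3 mutant libraries above WT in mESCs and 3 of 3 below WT in MEFs (edgeR adjusted p = 0.0247). The effect on Slc7a1 was higher in MEFs by 1.51, with 3 of 3 mutant libraries below WT in mESCs and 3 of 3 above WT in MEFs (edgeR adjusted p = 0.0247). Over the alternatives the adjusted p of edgeR or DESeq2 ran from 0.00124 to 0.13 for Ddit3 and from 0.00193 to 0.104 for Slc7a1.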

How the results depend on the processing

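Of 2400 values recomputed for the 40 genes, 2144 kept direction and side of the threshold, 165 were uncalled and changed sign, 46 gained and 44 lost a call, and 1 reversed. In mESCs, 0 genes were called higher, and this count was 1 with DESeq2, 1 without a filter, 1 with the replicate block, 3 with Y-linked libraries only and 0 to 2 leaving out each library. The 1 gene called lower became 0 in 1 fit of all groups, 0 with the GC correction, 0 with the study's thresholds, 2 with DESeq2, 4 without a filter, 4 with Y-linked libraries only and 0 to 2 leaving out each library. In MEFs, 2 genes called higher became 5 in 1 fit of all groups, 4 with DESeq2, 4 with the block and GC correction, 1 with 10 counts in every library and 0 to 1 leaving out each library, and 0 called lower became 1 with DESeq2 and 0 to 3 leaving out each library. For the difference between effects, 1 called higher became 0 with the replicate block, 2 with the GC correction and 0 to 3 leaving out each library, and 1 called lower became 2 with DESeq2, 2 with 10 counts in every library and 0 to 2 leaving out each library. Between WT cells, 14 called higher ranged from 10 to 14 and 7 called lower from 4 to 9. The share of all genes called also differed between fits. In MEFs it was 9.41% in the main fit, 14% with the replicate block and 9.67% with the GC correction. For most other fits this share is not given here, so their counts are not set against it. Atf5 in MEFs reversed from -0.18 to 1.17 with the replicate block and GC correction, and the cause was not tested. Adjusted p ranged from 0.00795 to 0.25 for Slc7a1 in mESCs, from 0.00264 to 0.118 for Atf6 and from 0.00217 to 0.116 for Psph in MEFs. The mESC libraries share only a number (Pearson's r 0.00777 and -0.172), and with it as a block Ddit3 was called higher at 1.143 (edgeR adjusted p = 0.0365), Chac1 was called lower at -1.67 (edgeR adjusted p = 0.0444), and Slc7a1, at -0.91, lost its call (edgeR adjusted p = 0.0640). A WT mESC group of 1 library was assumed to vary like the other groups.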

Other observations

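Some genes of related pathways had larger effects than any of the 40 genes. Hspa8, the constitutive cytosolic heat shock chaperone, was at 365 and 671 CPM in WT mESCs and at 14.3 to 33.9 CPM in Atxn7l3-/- mESCs, without overlap (log2 fold change -4.24, edgeR adjusted p = 0.0211). In MEFs it was at 31.9, 182 and 228 CPM in WT and at 56.4, 293 and 497 CPM in Atxn7l3-/- libraries, which overlapped. Spcs3, a subunit of the signal peptidase that trims proteins entering the ER, was at 122 to 142 CPM in WT MEFs and at 395 to 920.3 CPM in Atxn7l3-/- MEFs (2.30, edgeR adjusted p = 0.0165). The difference between effects for Gdf15 was -6.52 (edgeR adjusted p = 0.00620), with 1 mutant MEF library under the floor of 3 counts.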
